A study of Rattus norvegicus with 6 samples.

Results

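The genes described here build the intercalated disc, the junction that joins heart muscle cells end to end, and its gap junctions. They were chosen by symbol and comprise the connexin genes Gja1, Gja5 and Gjc1, the adherens junction genes Cdh2 and Ctnna3, and the desmosome genes Dsg2, Dsc2, Dsp, Jup and Pkp2. Of these 10 genes, 8 had a row under their symbol among the 32883 named rows of the count table, and all 8 passed the filter on low counts with 13766 genes in all. Pkp2 and Ctnna3 had no row under those symbols and are not counted in the RNA results below.

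RNA was sequenced from heart tissue of 8-week-old male rats of the outbred Sprague–Dawley strain, all labelled wild type. In the ISO group, 3 rats were injected under the skin with ISO at 1.5 mg/kg/day for 7 days. The labels do not spell out ISO, taken here to be isoproterenol, which activates beta-adrenergic receptors. In the saline group, 3 rats were injected with the same volume of saline over the same days. The study is about hypertrophy and fibrosis of the myocardium, each library came from its own rat, and the sources used here do not say which part of the heart was sampled.

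Connexins assemble into channels that dock between neighbouring heart muscle cells and pass the electrical impulse. Cadherins of the adherens junction and the desmosome hold the cells together from outside, and catenins, plakoglobin, plakophilin and desmoplakin tie them to actin and desmin filaments inside. In the disc the adherens and desmosomal proteins mix, and in humans inherited defects of desmosomal genes are a known cause of arrhythmogenic cardiomyopathy.

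The libraries held 15259502 to 16454903 counts in ISO and 14880391 to 17299589 counts in saline. Levels are library-size scaled read counts (CPM) after scaling by the trimmed mean of M values (TMM), and calls are those of edgeR's quasi-likelihood test at an adjusted p under 0.05 over all 13766 genes. Gene lengths were not used, so levels are compared between groups and not between genes. Cardiomyocyte markers were present, with 11 of the 12 listed having a row and each of those 11 above 100 CPM in every library. ISO replicate 1 stood apart by atrial genes: Myl7, the atrial myosin light chain, had 1128, 17 and 0 counts in ISO replicates 1 to 3, against 9, 25 and 17 counts in saline replicates 1 to 3.

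Promoter windows are shown for Gja1 and Dsg2, the 2 genes with the largest decreases among the 8, and for Gja5. Gja5 was the member with a log2 fold change above 0, was not called by edgeR (adjusted p = 0.276) and overlapped between groups. The windows come from RefSeq on the GRCr8 build. They run from 250 bases before to 50 bases after the start, 5′ to 3′ on the gene's strand. Capitals mark matches, on either strand, to 5 motifs. The AP-1 motif was searched as TGANTCA and the GC box as GGGCGG. The GATA motif was searched with the letters AGATAA. The motif of the TATA box was searched with the letters TATAAA. The last motif was TGACGT, the opening letters of the cyclic AMP response element, which was also searched whole as TGACGTCA.
Gja1 (chr20:36302314-36302613, + strand): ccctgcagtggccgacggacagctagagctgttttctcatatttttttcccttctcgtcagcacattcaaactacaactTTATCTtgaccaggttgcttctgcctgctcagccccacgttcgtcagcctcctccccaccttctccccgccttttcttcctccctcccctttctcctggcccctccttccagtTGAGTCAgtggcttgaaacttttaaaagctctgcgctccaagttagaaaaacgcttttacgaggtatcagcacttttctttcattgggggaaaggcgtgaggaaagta
Dsg2 (chr18:12121037-12121336, + strand): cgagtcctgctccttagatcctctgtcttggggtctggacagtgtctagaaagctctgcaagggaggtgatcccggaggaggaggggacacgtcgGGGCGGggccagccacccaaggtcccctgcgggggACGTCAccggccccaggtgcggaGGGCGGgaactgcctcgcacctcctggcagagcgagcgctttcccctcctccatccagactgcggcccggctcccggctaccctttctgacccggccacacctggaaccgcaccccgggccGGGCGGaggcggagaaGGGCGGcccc
Gja5 (chr2:187290977-187291276, + strand): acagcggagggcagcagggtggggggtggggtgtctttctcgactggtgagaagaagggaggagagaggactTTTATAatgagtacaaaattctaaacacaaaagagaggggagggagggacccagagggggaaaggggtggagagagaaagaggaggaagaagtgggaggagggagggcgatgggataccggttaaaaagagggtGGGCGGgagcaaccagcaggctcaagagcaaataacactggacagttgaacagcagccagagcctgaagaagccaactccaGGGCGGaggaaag

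The Gja1 window held an AP-1 site from base −58 to −52, which 7.33% of 33469 RefSeq promoter windows also held, and a GATA site on the opposite strand, found in 11.6% of windows. The Dsg2 window held 4 GC boxes. At least 1 GC box was found in 33.1% of all windows and in 5 of the 7 windows of listed genes. The Dsg2 window also held TGACGT on the opposite strand from −120 to −115, and 7.94% of all windows held these letters. The Gja5 window held 2 GC boxes. It also held a match to the letters TATAAA on the opposite strand at −178 to −173, and 14.2% of windows held such a match. Of the 10 listed genes, 7 had a window: Gja1, Gja5, Dsp, Jup, Dsg2, Dsc2 and Ctnna3. None of the 7 held the full cyclic AMP response element, which 1.83% of windows held, or the T-box site GGTGTGA, which 3.83% held. The motifs overlapped no other motif in these windows and were chosen with the sequences in view, so the matches are a description.

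ISO hearts had less RNA of the desmosomal cadherin gene Dsg2 than saline hearts, and the connexin gene Gja1 had a change of similar size with more spread that edgeR did not call. Of the 8 genes, 1 was called lower and 0 were called higher, while 2.97% of all tested genes were called in either direction and 1.50% were called lower. In the same fit 4 of the 8 (Gja1, Dsg2, Cdh2 and Dsc2) had an unadjusted p under 0.05, against 22.9% of all genes. DESeq2 called 2 of the 8, Gja1 and Dsg2, both lower, against 8.91% of the genes it adjusted. The same 2 met the series' own rule by DESeq2, a log2 change beyond 0.5 in either direction and p under 0.05 before adjustment, which 9.58% of genes met. The groups did not overlap in these 4 genes, each with every ISO heart below every saline heart, where 14.6% of all genes lay apart in that direction. The median log2 fold change of the 8 genes was −0.23, against 0.02 over all tested genes. Of the 8, 7 were below 0, against 47.7% of all tested genes. The number below 0 was 6 without scaling beyond library size and 4 with scaling on cardiomyocyte markers.

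**Figure D1:**
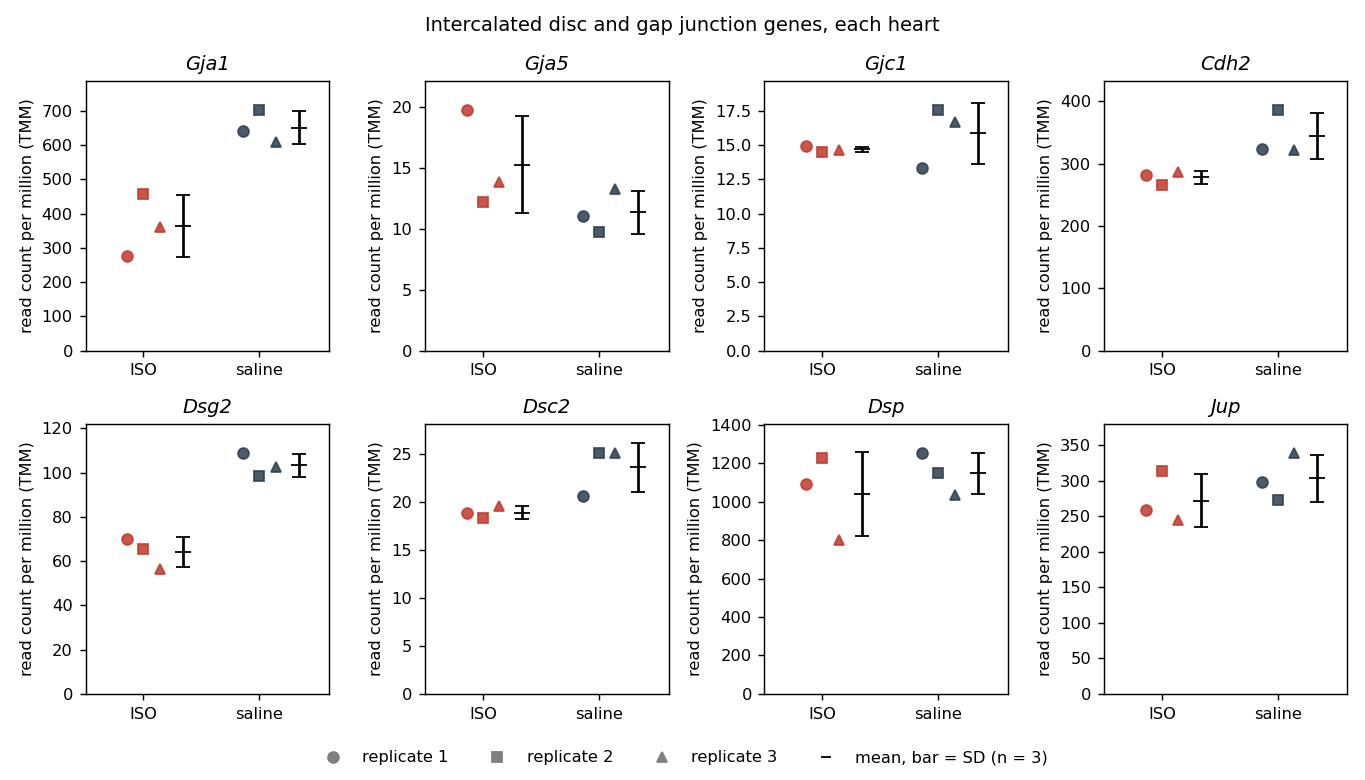
Level of each gene in each heart, in CPM after TMM scaling, with ISO hearts on the left and saline hearts on the right of each panel. Symbols give the replicate and bars the mean ± SD (n = 3); ISO and saline points are separate for Gja1, Cdh2, Dsg2 and Dsc2 and overlap for Gja5, Gjc1, Dsp and Jup.

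Among the connexins, Gja1 (ENSRNOG00000000805) encodes Cx43, the main gap junction protein of working ventricular muscle. It stood at 276, 457 and 361 CPM in ISO replicates 1 to 3 and at 643, 703 and 609 CPM in saline replicates 1 to 3. Every ISO heart was below every saline heart, and the ISO hearts differed more among themselves. The means were 365 ± 90.3 CPM in ISO and 652 ± 47.6 CPM in saline (SD, n = 3), a 0.56-fold level in ISO. The log2 fold change was −0.84 (SE 0.18), and edgeR did not call it (adjusted p = 0.0529). DESeq2 called it at −0.84 (adjusted p = 2.09e-04), and limma's voom did not (adjusted p = 0.0532). ISO replicate 2, the ISO heart with the most Gja1, weighed on this result, since without it the change was −1.03 and was called by edgeR (adjusted p = 0.019). Without ISO replicate 1, the library with atrial RNA, it was −0.68 (edgeR adjusted p = 0.141).

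Gja5 (ENSRNOG00000017484) encodes Cx40, the connexin of atrial muscle, the ventricular conduction system and arterial endothelium. Its level was 19.7, 12.2 and 13.8 CPM in ISO and 11.0, 9.75 and 13.3 CPM in saline. The highest value was in ISO replicate 1, and the other ISO hearts lay within or just above the saline range. The log2 fold change was 0.42 (SE 0.21, edgeR adjusted p = 0.276), with −0.01 to 0.85 spanned by 2 SE on either side. Without ISO replicate 1 it was 0.19 (SE 0.20, edgeR adjusted p = 0.676). In that library the atrial genes Myl4, Sln, Bmp10 and Mybphl also stood high, at 54.8, 42.0, 12.0 and 9.84 CPM, whereas none of them exceeded 2.93 CPM in any other library. The 8 atrial markers, which include Nppa, summed to 1465, 1610 and 1001 CPM in ISO and 170, 336 and 202 CPM in saline. Nppa alone stood at 1125, 1486 and 901 CPM in ISO and 42.8, 217 and 72.2 CPM in saline. It made up most of each ISO sum, so the sums mainly follow Nppa. Nppa was the called gene among the 5 tested atrial markers. No atrial marker was called without ISO replicate 1, saline replicate 1 or saline replicate 3. The part of atrial RNA in the Gja5 level was not tested.

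Other cell types that carry Cx40 gave no call. The 8 arterial endothelial markers summed to 199 to 242 CPM in ISO and 201 to 206 CPM in saline, with 0 of 8 called by edgeR and 0 by DESeq2. Of the 8, 2 had an unadjusted edgeR p under 0.05, against 22.9% of all genes. Conduction system markers summed to 96.0 to 102 CPM in ISO and 82.5 to 123 CPM in saline, with 0 of 5 tested members called by edgeR or DESeq2 and 0 at an unadjusted edgeR p under 0.05. Among the 5 tested members, Hcn4 stood at 21.7, 12.9 and 32.6 CPM in ISO and 42.1, 11.8 and 57.5 CPM in saline. Tbx3 stood at 9.27, 15.0 and 10.4 CPM in ISO and 12.1, 9.44 and 13.5 CPM in saline. Shox2 and Isl1, which mark pacemaker cells, did not pass edgeR's filter. Shox2 had 18, 8 and 2 counts in ISO and 6, 5 and 0 in saline, and Isl1 had 3, 0 and 0 in ISO and 0 in each saline library.

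Gjc1 (ENSRNOG00000048838), the gene of Cx45, a connexin of the early heart and the conduction system, was nearly level. It stood at 14.9, 14.5 and 14.6 CPM in ISO and 13.3, 17.6 and 16.7 CPM in saline, so the ISO values lay inside the saline range. Its log2 fold change was −0.11 (SE 0.15, edgeR adjusted p = 0.694), and with 2 SE on either side it spanned −0.40 to 0.18.

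The make-up of the connexin counts within each heart does not depend on how libraries are scaled. Per 100 Gja1 counts there were 7.15, 2.66 and 3.83 Gja5 counts in ISO and 1.72, 1.39 and 2.18 in saline, so every ISO heart lay above every saline heart. The log2 ratio of Gja5 to Gja1 was higher by 1.27 in ISO, with an adjusted p of 0.133 by an exact two-sided permutation test. Its unadjusted exact p was 0.1, the smallest that 3 hearts against 3 can give, and adjustment ran over 4 ratios. Without ISO replicate 1 the difference was 0.88. Per 100 Gja1 counts there were 5.40, 3.18 and 4.05 Gjc1 counts in ISO and 2.08, 2.50 and 2.74 in saline, again with no overlap, a difference of 0.76 in log2 ratio (exact permutation p = 0.1, adjusted 0.133). Gja1 was the denominator of both ratios, so they are not independent of each other or of its own change.

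**Figure D2:**
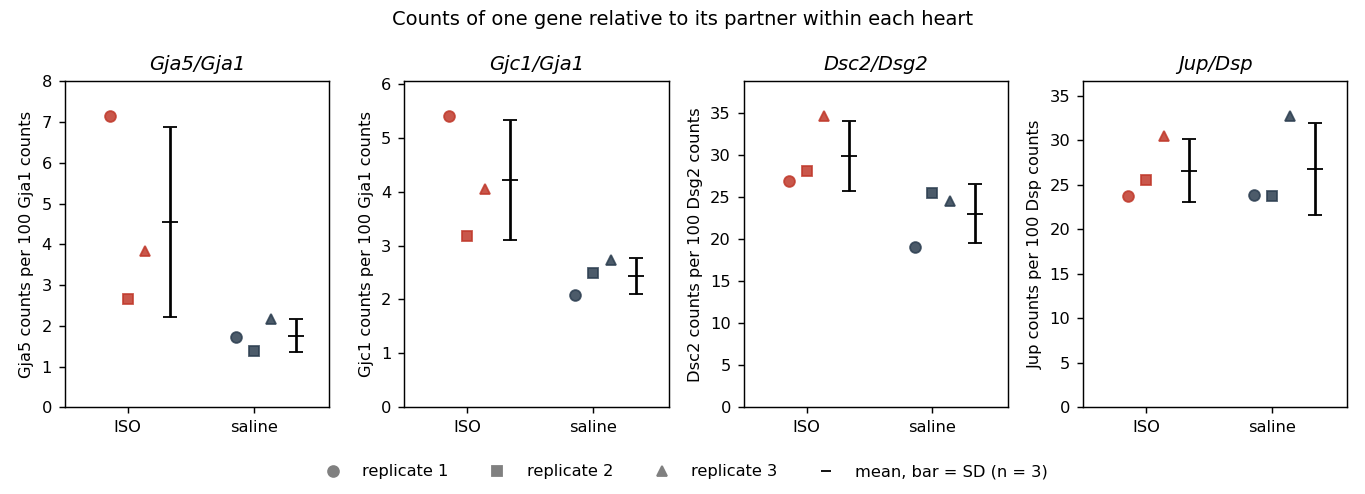
Counts of a gene per 100 counts of its partner in each heart, for Gja5/Gja1, Gjc1/Gja1, Dsc2/Dsg2 and Jup/Dsp, with ISO on the left and saline on the right of each panel. Symbols give the replicate and bars the mean ± SD (n = 3); the first 3 ratios are higher in every ISO heart, with Gja5/Gja1 from 2.66 to 7.15 in ISO and 1.39 to 2.18 in saline, while Jup/Dsp overlaps.

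In the adherens junction, Cdh2 (ENSRNOG00000015602) encodes N-cadherin, the cadherin that links heart muscle cells across the disc. It stood at 281, 266 and 286 CPM in ISO and 324, 386 and 321 CPM in saline. The groups did not overlap, and the 3 ISO hearts lay within a narrow range. The log2 fold change was −0.31 (SE 0.12) and was not called (edgeR adjusted p = 0.174). Gja1 counts per 100 Cdh2 counts, a ratio chosen after its values were seen and not tested, were 98.2, 172 and 126 in ISO and 199, 182 and 190 in saline.

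Ctnna3 encodes alpha-T-catenin, which links cadherins to actin and binds plakophilin in the area composita. RefSeq gives AABR07044900.1 as a synonym of Ctnna3, and the table had a row under that name (ENSRNOG00000000373), which lies outside the rule for the members and was looked up after the members were counted. That row stood at 7.27, 8.36 and 6.42 CPM in ISO and 12.0, 11.6 and 10.9 CPM in saline, with no overlap. Its log2 fold change was −0.64 (SE 0.17) and was not called by edgeR (adjusted p = 0.0736), while DESeq2 gave an adjusted p of 0.0472. Whether this row holds all of the reads of Ctnna3 was not tested.

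Among the desmosomal cadherins, Dsg2 (ENSRNOG00000016526), the gene of desmoglein 2, was the called gene of the 8. It stood at 69.9, 65.3 and 56.6 CPM in ISO and 109, 98.5 and 103 CPM in saline. The groups lay well apart and were tight, with means of 63.9 ± 6.76 CPM in ISO hearts and 103 ± 5.21 CPM in saline hearts (SD, n = 3). Dsg2 fell by 0.69 on the log2 scale (SE 0.11, edgeR adjusted p = 0.0229), to a 0.62-fold level, and DESeq2 and voom called it too (adjusted p = 3.18e-05 and 0.0242). With 1 library left out, its change stayed between −0.77 and −0.61. The call was kept without ISO replicate 2 or 3 (edgeR adjusted p = 0.0308 and 0.0378) and lost without ISO replicate 1 (0.0718) or saline replicate 1, 2 or 3 (0.1003, 0.0717 and 0.115). Of all genes, 206 were called lower in the main fit. That number was 14 without ISO replicate 1 and 12, 16 and 5 without saline replicate 1, 2 or 3. With the replicate number as a block, edgeR gave −0.70 for Dsg2 and an adjusted p of 0.0731.

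Dsc2 (ENSRNOG00000039969), the gene of desmocollin 2 and the adhesion partner of desmoglein 2, stood at 18.9, 18.3 and 19.6 CPM in ISO and 20.7, 25.1 and 25.1 CPM in saline. The groups did not overlap, although saline replicate 1 lay close to the ISO hearts. The log2 fold change was −0.32 (SE 0.12) and was not called (edgeR adjusted p = 0.177). Per 100 Dsg2 counts there were 27.0, 28.1 and 34.6 Dsc2 counts in ISO and 19.0, 25.5 and 24.5 in saline. The log2 ratio of these partners was higher by 0.38 in ISO with no overlap (exact permutation p = 0.1, adjusted 0.133).

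On the inner side of the desmosome, Dsp (ENSRNOG00000013928) encodes desmoplakin, which anchors desmin filaments, and Jup (ENSRNOG00000015380) encodes plakoglobin, a catenin shared by desmosomes and adherens junctions. Dsp stood at 1091, 1229 and 801 CPM in ISO and 1253, 1151 and 1037 CPM in saline. The groups overlapped, and ISO replicate 3 was the lowest of all 6 hearts. The log2 fold change of Dsp was −0.14 (SE 0.18, edgeR adjusted p = 0.684), and it was 0.02 without ISO replicate 3.

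Jup stood at 259, 314 and 244 CPM in ISO and 299, 274 and 339 CPM in saline, also with overlap, and gave −0.16 (SE 0.14, edgeR adjusted p = 0.541). With 2 SE on either side, Dsp spanned −0.50 to 0.22 and Jup −0.44 to 0.12. Jup counts per 100 Dsp counts were 23.7, 25.5 and 30.5 in ISO and 23.9, 23.8 and 32.7 in saline (exact permutation p = 0.9). Dsg2 counts per 100 Dsp counts, chosen after their values were seen and not tested, were 6.41, 5.31 and 7.06 in ISO and 8.69, 8.55 and 9.89 in saline, with no overlap.

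**Figure D3:**
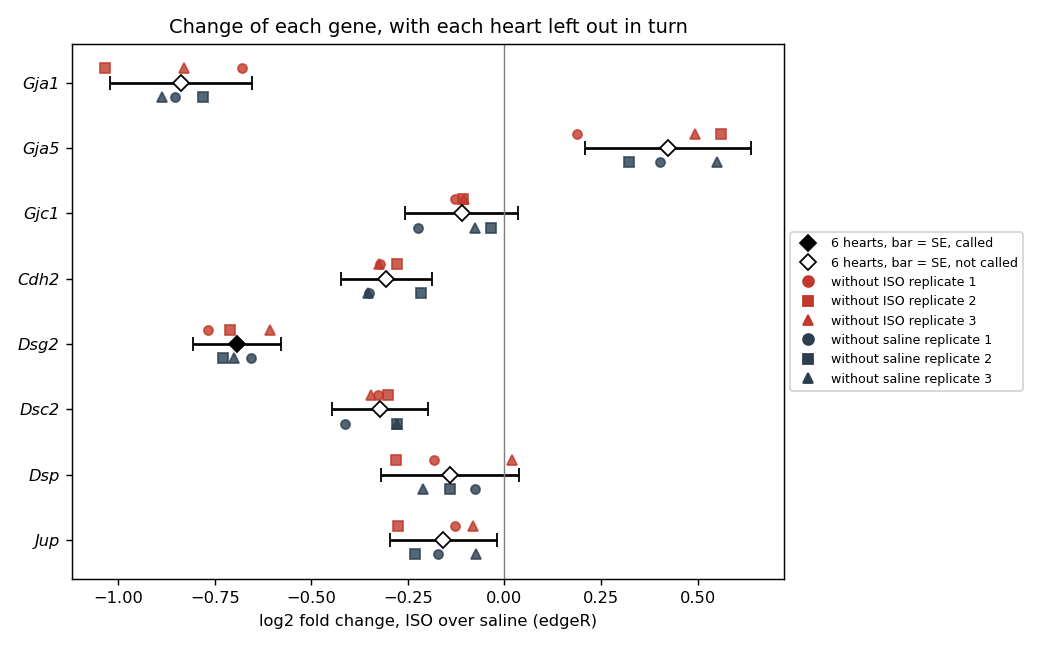
Log2 fold change of each gene, ISO over saline, by edgeR. Diamonds with SE bars use all 6 hearts and are filled where called, and coloured symbols leave out 1 heart each; Dsg2 stays between −0.77 and −0.61, Gja1 between −1.03 and −0.68, and Dsp crosses 0 without ISO replicate 3.

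Fibroblast and macrophage markers were higher in ISO in these bulk samples, where the number of cells of a type and the RNA per cell cannot be told apart. The 11 cardiomyocyte markers summed to 36367 to 54435 CPM in ISO and 48382 to 62126 CPM in saline, with 0 of 11 called by edgeR. Of the 11, 2 had an unadjusted edgeR p under 0.05, against 22.9% of all genes. DESeq2 called 2 of the 11 lower, where it called 8.91% of genes in either direction. The mean log2 CPM of the 11 markers was 11.32, 11.63 and 11.02 in ISO and 11.72, 11.39 and 11.66 in saline (exact permutation p = 0.2). Fibroblast markers summed to 7418 to 19490 CPM in ISO and 3166 to 3960 CPM in saline, with 4 of 9 called higher, and macrophage markers to 804 to 1804 CPM in ISO and 358 to 441 CPM in saline, with 5 of 9 called higher, where 1.47% of all genes were called higher. DESeq2 called 8 of 9 and 9 of 9 of them higher, against the same 8.91% of genes in either direction. Called fibroblast markers numbered 0, 7 and 4 without ISO replicate 1, 2 or 3 and 0 without any of the saline replicates, and called macrophage markers 1, 8 and 6 without ISO replicate 1, 2 or 3 and 0 without any of the saline replicates. The same fits called 6 to 492 of all genes higher. Tested endothelial (7), smooth muscle and pericyte (8), Schwann (6), red cell (5) and lymphocyte (3) markers gave 0 edgeR calls. Over all genes edgeR called 2.97% in either direction. DESeq2 called 1 endothelial marker lower. It called 1 marker higher in each of the smooth muscle and pericyte, Schwann and lymphocyte lists, against 8.91% of genes. Mitochondrially encoded genes took 22.6% to 22.9% of the named counts in ISO and 20.9% to 28.8% in saline.

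Relative to the mean of the cardiomyocyte markers in the same heart, Dsg2 lay at −5.19, −5.60 and −5.20 on the log2 scale in ISO and at −4.96, −4.76 and −4.98 in saline, with no overlap. Gja1 lay at −3.21, −2.79 and −2.53 in ISO and −2.40, −1.93 and −2.41 in saline. Its groups did not overlap, although ISO replicate 3 lay close to saline replicates 1 and 3. How many of all genes lay apart on this scale was not computed. The group differences on this scale were −0.43 for Dsg2 and −0.60 for Gja1, against −0.04 for Cdh2, −0.05 for Dsc2, 0.10 for Dsp, 0.10 for Jup, 0.16 for Gjc1 and 0.67 for Gja5. An edgeR fit scaled on these markers called neither Dsg2 (−0.42, adjusted p = 0.246) nor Gja1 (−0.59, adjusted p = 0.181). That scaling moved the median of all tested genes to 0.30 and the median of the 8 genes to 0.03.

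Calls among other disc genes are given list by list. Over all genes, edgeR called 2.97% in either direction and DESeq2 called 8.91% of those it adjusted. Among other connexins and pannexins, 0 of 6 tested members were called by edgeR or DESeq2, and the median was 0.11. Of the 6, 1 had an unadjusted edgeR p under 0.05, against 22.9% of all genes. The members with the highest mean CPM, a measure that also depends on gene length, were Gja3, known from the lens, at 30.5, 26.9 and 16.5 CPM in ISO and 22.5, 18.5 and 19.8 CPM in saline, and the arterial connexin gene Gja4, at 17.0, 19.6 and 15.1 CPM in ISO and 13.1, 13.2 and 13.5 CPM in saline. Gja4 was higher in every ISO heart and was not called (0.38, SE 0.14, edgeR adjusted p = 0.165). Of the 19 with a row, 7 had 0 counts in all 6 libraries, among them the liver connexin gene Gjb1, and 3 counts would be 0.175 to 0.204 CPM.

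Among connexin partners and turnover genes, 1 of 15 was higher, where 1.47% of all genes were called higher, and 14 were not called by edgeR. An unadjusted edgeR p under 0.05 was found for 7 of the 15, against 22.9% of all genes, and the median was −0.17. DESeq2 called 1 higher and 1 lower, where it called 8.91% of genes in either direction. The called gene was Src, a tyrosine kinase that phosphorylates connexins, at 22.4, 21.7 and 28.6 CPM in ISO and 11.7, 15.5 and 14.7 CPM in saline. Src rose by 0.80 on the log2 scale (SE 0.17, edgeR adjusted p = 0.0462) and kept its call in 1 of the 6 fits with a library left out, that without ISO replicate 2. Its adjusted p ranged from 0.0408 to 0.161 over those fits, in which 6 to 492 of all genes were called higher.

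Other adherens junction and area composita genes had 0 of 17 tested members called by edgeR and a median of −0.10. Of the 17, 6 had an unadjusted edgeR p under 0.05, against 22.9% of all genes. DESeq2 called 2 higher, where it called 8.91% of genes in either direction. Ctnna1, the gene of alpha-E-catenin, stood at 397, 452 and 376 CPM in ISO and 536, 518 and 483 CPM in saline, with no overlap (−0.33, SE 0.12, edgeR adjusted p = 0.157). Nrap, an actin anchor of the disc, overlapped between groups (0.17, SE 0.23, edgeR adjusted p = 0.712).

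Other desmosome and desmin genes had 0 of 10 tested members called by edgeR and a median of 0.13. Of the 10, 2 had an unadjusted edgeR p under 0.05, against 22.9% of all genes. DESeq2 called 1 lower, where it called 8.91% of genes in either direction. Des, the gene of the filament that desmoplakin anchors, stood at 2880, 2645 and 2477 CPM in ISO and 2428, 2048 and 2000.4 CPM in saline. Every ISO heart lay above every saline heart, and the change of 0.31 (SE 0.15) was not called (edgeR adjusted p = 0.254). Lmna, the gene of the nuclear lamins A and C, gave 0.14 (SE 0.15, edgeR adjusted p = 0.618).

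Membrane and channel partners of the disc had 1 of 18 tested members lower, where 1.50% of all genes were called lower, none higher and a median of −0.29. Of the 18, 14 were below 0, against 47.7% of all genes, 8 had an unadjusted p under 0.05, against 22.9%, and DESeq2 called 5 lower, where it called 8.91% of genes in either direction. The called gene was Fhl2, a LIM-domain protein that binds channel subunits and sarcomere proteins. Fhl2 stood at 670, 795 and 738 CPM in ISO and 1842, 1263 and 1474 CPM in saline. Fhl2 fell by 1.06 on the log2 scale (SE 0.17, edgeR adjusted p = 0.0207) and kept its call in 2 of the 6 fits with a library left out, those without ISO replicate 2 or 3. Its adjusted p ranged from 0.0235 to 0.104 over those fits, in which 5 to 346 of all genes were called lower.

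**Figure D4:**
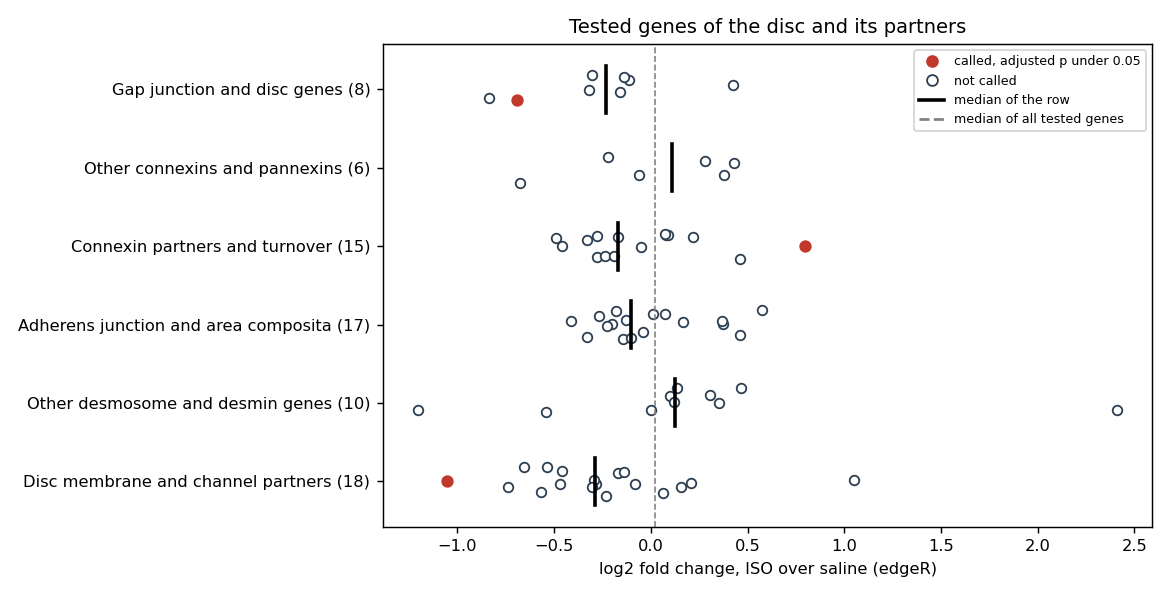
Log2 fold change, ISO over saline by edgeR, of the tested genes of each list, with the number tested in brackets. Filled points were called (Dsg2, Src and Fhl2), short lines are list medians and the dashed line is the median of all tested genes at 0.02.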

How the data were processed

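The authors deposited raw read counts, as whole numbers, for each gene and library. Per the series description, 150 bp paired reads were aligned to a rat genome by HISAT2 and counted by featureCounts. The sources used here give neither the versions nor the strand setting, so reads of overlapping genes on opposite strands may be mixed. The submitters' processing notes name a mouse genome build, whereas the named rows carry rat Ensembl identifiers, and no coordinates were joined to the counts. The 1006 placeholder rows among 33889 (0.981% to 1.32% of a library's counts) were left out. Each member had 1 row, with 156 to 19710 counts per library.

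The test was edgeR 4.0.16 under R 4.3.3 (quasi-likelihood F test, TMM, default low-count filter, Benjamini-Hochberg adjustment over all tested genes). SE is the log2 fold change divided by the square root of F. DESeq2 1.42.0 and voom in limma 3.58.1 were alternatives, and ratios within a library used a pseudocount of 0.5. The edgeR step was tested on simulated counts. Members, lists and tests were chosen with earlier results of these data known. Genes named from a list were its called members with the smallest p, up to 5, or otherwise the 2 with the highest mean CPM. No 2 libraries agreed within sampling noise. Of 6 planned ratios, 2 involved genes with no row and were not computed.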

Additional observations from a re-analysis of the deposited data

How the results depend on the processing

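Of the 8 members, 1 was called lower and 0 higher in the main fit, and 0 were called higher under every alternative run. The number called lower was 2 (Gja1 and Dsg2) with no low-count filter, with DESeq2 and under the series' own rule by DESeq2 (absolute log2 fold change over 0.5 and unadjusted p under 0.05, met by 9.58% of genes), and 0 at an adjusted p under 0.01, with scaling on cardiomyocyte markers and with the replicate block. With 1 library left out it ranged from 0 to 2. All tested genes split into 203 higher and 206 lower. The split was 36 and 7 with scaling on cardiomyocyte markers, 322 and 272 with no filter, 698 and 603 with DESeq2, 1279 and 643 under the series' rule, 4 and 7 at an adjusted p under 0.01, 15 and 13 with the replicate block, and 280 and 123 without scaling, which moved the median of all genes to 0.13. With 1 library left out, it ranged from 6 to 492 higher and from 5 to 346 lower, and the lowest and highest counts of higher genes came without saline replicate 2 and without ISO replicate 2. Signs changed for Gjc1 without scaling (0.0016) and for Gjc1, Dsp and Jup with scaling on cardiomyocyte markers (0.15, 0.096 and 0.10), for Dsp without ISO replicate 3 (0.020, where the fits with 1 library left out ranged from −0.28), and for the Jup/Dsp ratio, which ranged from −0.10 to 0.15 with 1 library left out and was 0.076, 0.023 and 0.15 where the sign changed. None of these was called; the cause was not tested. Gja1, Gja5, Cdh2, Dsg2 and Dsc2 and the other 3 ratios kept their direction under every alternative run. Same-numbered ISO and saline libraries had correlations of deviations from their group means of 0.093, −0.13 and 0.010, so the numbers were not taken as pairs; ISO replicates 1, 2 and 3 correlated best with saline replicates 1, 1 and 2. With 3 rats a group, p-values rest on few libraries, and counts as low as 156 add counting error to Gja5, Gjc1 and Dsc2.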

Other observations

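Desmosome genes best known from epithelia did not all lie on the same side of saline in ISO hearts, and those given here were named after their values were seen. Dsg3, a desmoglein of stratified epithelium, had 6, 9 and 11 counts in ISO replicates 1 to 3 and 0 counts in each saline library, where a count of 0 allows up to 3 counts. Without the low-count filter, which leaves Dsg3 out, edgeR gave it an adjusted p of 0.0506. Dsc3, a desmocollin of the same tissue, had 3, 0 and 14 counts in ISO and 0 in each saline library (edgeR adjusted p = 0.201 without the filter). Pkp1, a plakophilin of epidermal desmosomes, had 129, 12 and 63 counts in ISO and 33, 1 and 1 in saline (edgeR adjusted p = 0.261). Pkp3, another epithelial plakophilin, went the other way with no overlap, at 7, 8 and 10 counts in ISO and 16, 25 and 14 in saline (log2 fold change −1.20, SE 0.42, edgeR adjusted p = 0.141). Perp, another desmosome gene, was also lower, at 65.1, 72.2 and 53.6 CPM in ISO and 89.8, 95.3 and 92.9 CPM in saline. Its log2 fold change was −0.54 (SE 0.13, edgeR adjusted p = 0.0584). DESeq2 called it (adjusted p = 0.00702), where it called 8.91% of genes. Dsg1, Dsg4 and Evpl overlapped between groups. Dsc1 had 2, 2 and 0 counts in ISO and 0, 3 and 0 in saline, and Ppl, the gene of periplakin, overlapped between groups (0.12, SE 0.35, edgeR adjusted p = 0.877). Mesothelial and epithelial markers summed to 74.9, 70.1 and 29.9 CPM in ISO and 62.1, 91.1 and 26.2 CPM in saline, with 0 of 7 tested members called by edgeR or DESeq2 and 0 at an unadjusted edgeR p under 0.05. None of these genes was called by edgeR, and the source of their counts was not tested.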
